A study of Homo sapiens with 12 samples.

Results

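The plasminogen activators and their serpin inhibitors were followed as 5 genes in MV3 cells. PLAU, PLAUR, PLAT, SERPINE2 and SERPINB2 were found by exact symbol among the 58288 genes of the deposited tables, and all 5 were among the 14088 genes with enough reads to be tested. Their identifiers in the count table are ENSG00000122861.15 (PLAU), ENSG00000011422.11 (PLAUR), ENSG00000104368.17 (PLAT), ENSG00000135919.12 (SERPINE2) and ENSG00000197632.8 (SERPINB2). MV3 is an established human melanoma line from a lymph node metastasis, grown with 10% serum, with 3 h at 1% serum before exposure. The cells spent 24 h in medium conditioned by THP-1 macrophages or in fresh, unconditioned RPMI medium (Ctrl). THP-1 is a human monocyte line. The phorbol ester PMA turned it into macrophages, which were further treated with LPS and IFNγ (M1), further treated with IL4 and IL13 (M2), or not polarized (M0). Each group held 3 libraries. Whether the 3 libraries of a group began as 3 cultures is not stated, and the p-values then reflect differences among these libraries, possibly technical ones. The 3 conditioned media share passage over macrophages and PMA differentiation, Ctrl had neither, and stimulants carried over in the media were not measured.

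Plasminogen is an inactive serum enzyme that becomes plasmin when 1 peptide bond is cut, and plasmin dissolves fibrin and matrix proteins around the cell. Urokinase (the product of PLAU) and tissue-type activator (PLAT) make that cut, urokinase mostly at the cell surface while held by its receptor (PLAUR), and tissue-type activator mostly on fibrin. Serpins are suicide inhibitors: a protease that cuts their exposed loop is trapped. Protease nexin 1 (SERPINE2) blocks urokinase, plasmin and thrombin outside the cell, and plasminogen activator inhibitor 2 (SERPINB2) blocks urokinase but stays largely inside the cell that makes it. Urokinase and its receptor are known from invasive melanoma.

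Library totals ran from 21788397 to 42921242 reads. Levels are given as CPM, counts per 1e6 reads after TMM scaling, as mean ± SD over the 3 libraries of a group. In M2 replicate 2, 3759 genes were detected in that library alone, against 160 to 453 for each of the other 11. Macrophage marker RNA was near 0: 15 marker genes summed to 0.837 to 1.02 CPM in M1, 0.787 to 1.17 CPM in M2, 1.05 to 1.12 CPM in M0 and 1.34 to 1.55 CPM in Ctrl, and AIF1 and FCGR3A had 0 reads in all 12 libraries. Of 8 melanocytic markers, TYR and S100B also had 0 reads in all 12 libraries, SOX10 and MLANA had 1 read each in all, and PMEL had 2 to 8 reads a group. MITF alone was tested, at 2.18 CPM in M1, 2.16 CPM in M2, 3.10 CPM in M0 and 1.17 CPM in Ctrl, and was called higher in each conditioned medium against Ctrl. Of 6 dedifferentiated-state markers, AXL, VIM, NT5E and EGFR averaged 515 CPM or more in every group, but they were not constant. In M1 against Ctrl, AXL was called lower (log2 -0.96) and VIM (log2 0.63), NT5E (log2 0.44) and EGFR (log2 0.34) higher. In M2 against Ctrl, AXL and NT5E were called lower and VIM and EGFR higher. In M0 against Ctrl, NT5E was called lower, VIM and EGFR higher, and AXL did not pass. SOX9 averaged 12.7 CPM in M1, 15.4 CPM in M2, 20.9 CPM in M0 and 56.7 CPM in Ctrl and was called lower in each conditioned medium against Ctrl, and NGFR had at most 2 reads in any group.

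The promoters of the gene that changed most, SERPINB2, and of the receptor gene PLAUR are shown because each holds a match to the AP-1 motif TGANTCA, searched on both strands. The sequences are the 250 bases before a RefSeq transcript start (GRCh38.p14), written 5′ to 3′ on the strand of the gene, with motif matches in capitals. SERPINB2 lies on the plus strand at chr18:63887455-63887704 and PLAUR on the minus strand at chr19:43670170-43670419.
SERPINB2: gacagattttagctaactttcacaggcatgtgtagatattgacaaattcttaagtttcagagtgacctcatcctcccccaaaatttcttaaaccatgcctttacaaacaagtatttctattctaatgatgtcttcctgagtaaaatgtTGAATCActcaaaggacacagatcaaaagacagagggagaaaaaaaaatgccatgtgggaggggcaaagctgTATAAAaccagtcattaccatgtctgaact
PLAUR: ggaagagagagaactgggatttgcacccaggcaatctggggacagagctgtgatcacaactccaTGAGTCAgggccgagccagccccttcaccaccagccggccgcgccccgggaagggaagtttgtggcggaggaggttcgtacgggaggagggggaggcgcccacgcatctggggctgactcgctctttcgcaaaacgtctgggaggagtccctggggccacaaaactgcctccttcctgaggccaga

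In SERPINB2 the AP-1 match began 102 bases before the start and a TATA box (TATAAA) 30 bases before it. In PLAUR the AP-1 match began 186 bases before the start. The kB consensus, to which NF-kB binds, was also searched and was not found in these 250 bases of SERPINB2 or PLAUR. In 2 windows each of PLAU and SERPINE2, none of the motifs searched was found, AP-1 included. Matches in the promoter of PLAT are not reported here. Of 35116 promoter windows of the same length, 6.57% held the AP-1 motif, 9.96% the kB consensus and 10.7% the TATA box. These matches describe letters only, and gene counts do not show which start the cells used.

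PLAU, which encodes urokinase, was highest in M1 medium and lowest in M2 and M0. It had 491, 449 and 483 CPM in M1 replicates 1, 2 and 3, 243, 233 and 222 CPM in M2, 246, 238 and 275 CPM in M0, and 386, 343 and 358 CPM in Ctrl. Each M1 library lay above each Ctrl library, and each Ctrl library above the M2 and M0 libraries, which overlapped each other. PLAU rose 1.88-fold in M1 against M0, at 474 ± 22.5 against 253 ± 19.4 CPM (log2 0.91 ± 0.07 SE, adjusted p = 7.81e-08). It was 2.04-fold higher in M1 than in M2, where it stood at 233 ± 10.5 CPM (log2 1.03 ± 0.05 SE, adjusted p = 2.06e-08).

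Against fresh medium the conditioned media moved PLAU in opposite directions. It rose in M1 by log2 0.39 ± 0.06 SE over the 362 ± 21.9 CPM of Ctrl (adjusted p = 0.000124). It fell in M2 (log2 -0.64 ± 0.06 SE, adjusted p = 9.87e-07) and in M0 (log2 -0.52 ± 0.08 SE, adjusted p = 1.13e-05). M2 and M0, the neighbours at the low end, did not differ past the threshold (log2 -0.12 ± 0.07 SE, adjusted p = 0.229). In GRCh38, PLAU lies at chr10:73909177-73917497 on the plus strand, and 31.1% of its exonic bases are shared with C10orf55 on the other strand. That gene had 610 reads in all 12 libraries, against 131703 for PLAU.

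**Figure D1:**
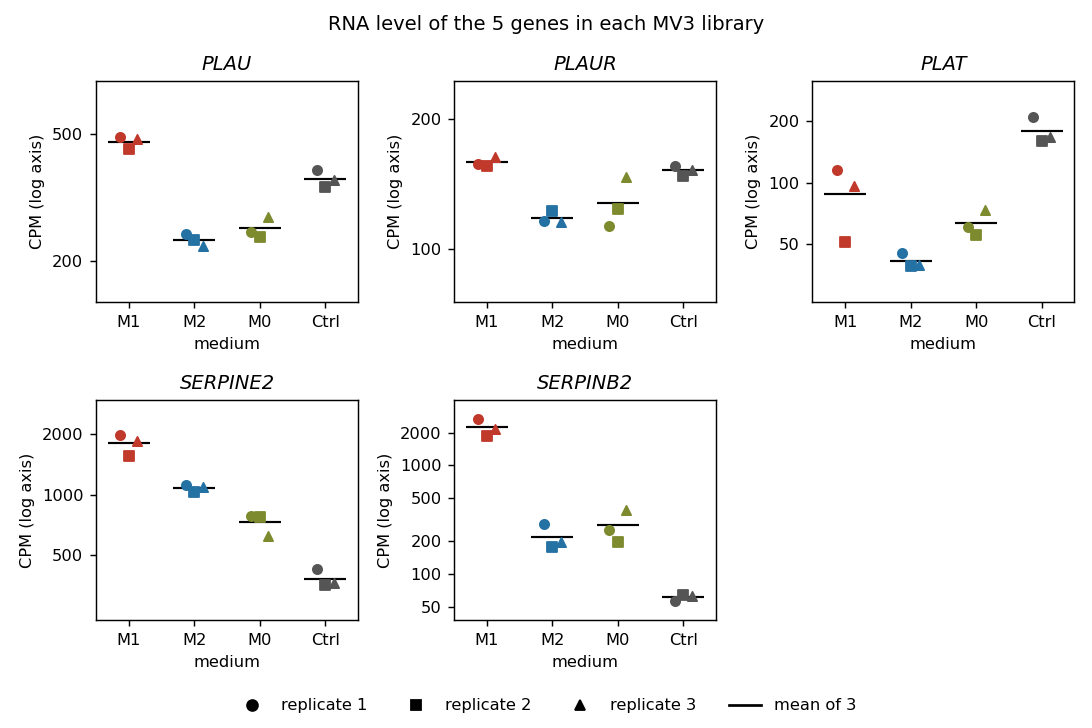
CPM on log axes in each of the 12 libraries, 1 panel per gene, with M1, M2, M0 and Ctrl from left to right. Symbols are replicates and lines are means of 3; SERPINB2 lies between 1852 and 2685 CPM in M1 and between 56.4 and 65.0 CPM in Ctrl, while PLAT is highest in Ctrl.

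PLAT, which encodes tissue-type activator, was lower in every conditioned medium than in fresh medium. It had 116, 51.6 and 96.8 CPM in M1, 45.4, 39.3 and 39.6 CPM in M2, 60.8, 55.9 and 73.3 CPM in M0, and 210, 160 and 167 CPM in Ctrl. All Ctrl libraries lay above all others, and M1 replicate 2 stood apart from the other M1 libraries, below the lowest M0 library. PLAT fell in M2 by log2 -2.11 ± 0.14 SE against Ctrl, at 41.4 ± 3.45 against 179 ± 26.8 CPM (adjusted p = 3.7e-07). The fall was log2 -1.50 ± 0.17 SE in M0 (adjusted p = 1.49e-05) and -1.02 ± 0.37 SE in M1 (adjusted p = 0.000326).

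Among the conditioned media the order of PLAT was M1, M0 and M2. M1 was 2.12-fold above M2 (88.0 ± 32.9 against 41.4 ± 3.45 CPM, log2 1.09 ± 0.36 SE, adjusted p = 0.000979). M1 and M0 did not differ past the threshold (log2 0.47 ± 0.37 SE, adjusted p = 0.0643). Without M1 replicate 2 they did, with PLAT higher in M1 by log2 0.76 (adjusted p = 0.00027). Without M1 replicate 1 the difference was log2 0.24 (adjusted p = 0.342), and leaving out any other single library of M1 or M0 gave no call either. M2 was below M0 by log2 -0.61 ± 0.13 SE at the edge of the threshold (adjusted p = 0.044). That call was lost when any 1 library of M0 or M2 was left out except M0 replicate 2, with log2 fold changes of -0.64 without M0 replicate 1, -0.49 without M0 replicate 3, and -0.68, -0.58 and -0.58 without M2 replicates 1, 2 and 3. DESeq2 did not call it either (adjusted p = 0.0545).

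PLAUR, which encodes the urokinase receptor, varied least of the 5 genes. It lies at chr19:43646095-43670547 on the minus strand. It had 157, 156 and 163 CPM in M1, 116, 122 and 116 CPM in M2, 113, 124 and 147 CPM in M0, and 156, 148 and 153 CPM in Ctrl. M2 lay below M1 and Ctrl in all libraries, and M0 replicate 3 stood closer to Ctrl than the other M0 libraries did. PLAUR rose in M1 against M0 by log2 0.31 ± 0.11 SE (159 ± 3.98 against 128 ± 17.3 CPM, adjusted p = 0.00345) and was higher in M1 than in M2 by log2 0.43 ± 0.03 SE (adjusted p = 0.000659). Against Ctrl it fell in M2 (log2 -0.37 ± 0.03 SE, adjusted p = 0.000682).

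Its fall in M0 against Ctrl was smaller, at log2 -0.25 ± 0.11 SE (adjusted p = 0.0111), and not stable. It was -0.18 with the call lost without M0 replicate 1 (adjusted p = 0.0552) and -0.38 without M0 replicate 3 (adjusted p = 0.000138). M1 and Ctrl, the neighbours at the top, did not differ past the threshold (log2 0.06 ± 0.03 SE, adjusted p = 0.492), nor did M2 and M0 at the bottom (log2 -0.11 ± 0.11 SE, adjusted p = 0.302). PLAUR thus had the same order of groups as PLAU in its means, within a narrower range.

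SERPINE2, which encodes protease nexin 1, rose in every conditioned medium, most in M1 and least in M0. It lies at chr2:223975112-224039319 on the minus strand. It had 1993, 1567 and 1856 CPM in M1, 1115, 1029 and 1089 CPM in M2, 782, 777 and 624 CPM in M0, and 426, 353 and 363 CPM in Ctrl. No library of a group overlapped with one of another group. Against Ctrl, at 381 ± 39.9 CPM, it rose 4.74-fold in M1 (1805 ± 217 CPM, log2 2.25 ± 0.13 SE, adjusted p = 5.19e-11), 2.83-fold in M2 (1078 ± 44.2 CPM, log2 1.50 ± 0.09 SE, adjusted p = 5.85e-09) and 1.91-fold in M0 (728 ± 89.7 CPM, log2 0.94 ± 0.14 SE, adjusted p = 1.27e-06).

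Each step between conditioned media also passed the test. SERPINE2 was 2.48-fold higher in M1 than in M0 (log2 1.31 ± 0.15 SE, adjusted p = 9.2e-08) and 1.67-fold higher in M1 than in M2 (log2 0.74 ± 0.11 SE, adjusted p = 4.93e-05). It was the only one of the 5 genes to rise in M2 against M0 (log2 0.57 ± 0.11 SE, adjusted p = 0.00187).

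SERPINB2, which encodes plasminogen activator inhibitor 2, had the widest range of the 5 genes. It had 2685, 1852 and 2178 CPM in M1, 287, 177 and 197 CPM in M2, 257, 196 and 389 CPM in M0, and 56.4, 65.0 and 62.5 CPM in Ctrl. M1 lay far above all other groups, Ctrl below them, and M2 and M0 overlapped. SERPINB2 rose 36.6-fold in M1 against Ctrl, at 2239 ± 420 against 61.3 ± 4.43 CPM (log2 5.19 ± 0.17 SE, adjusted p = 6.63e-11). The rise was 3.60-fold in M2 (220 ± 58.6 CPM, log2 1.85 ± 0.22 SE, adjusted p = 2.3e-06) and 4.58-fold in M0 (280 ± 98.9 CPM, log2 2.20 ± 0.29 SE, adjusted p = 5.21e-07).

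Among conditioned media, SERPINB2 was much higher in M1. It was 7.97-fold higher in M1 than in M0 (log2 3.00 ± 0.33 SE, adjusted p = 5.59e-08) and 10.2-fold higher than in M2 (log2 3.34 ± 0.26 SE, adjusted p = 2.03e-08). By log2 fold change in M1 against M0 it ranked 104 from the top of 14088 genes. SERPINB2 (chr18:63871692-63903890, plus strand) shares 19.9% of its exonic bases with SERPINB10. M2 and M0 did not differ past the threshold (log2 -0.35 ± 0.36 SE, adjusted p = 0.239), and the difference was log2 -0.03 without M0 replicate 3 (adjusted p = 0.936), -0.21 without M2 replicate 2 (adjusted p = 0.568), -0.55 without M0 replicate 2 (adjusted p = 0.0531) and -0.58 without M2 replicate 1 (adjusted p = 0.0703). Monocytes and macrophages are themselves known to make SERPINB2. The 15 macrophage markers had 102 reads in M1 and 157 reads in Ctrl, and SERPINB2 had 243609 and 6408. Whether any SERPINB2 reads came from macrophages was not tested. In bulk RNA, more transcript per cell and more cells with the transcript cannot be told apart.

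**Figure D2:**
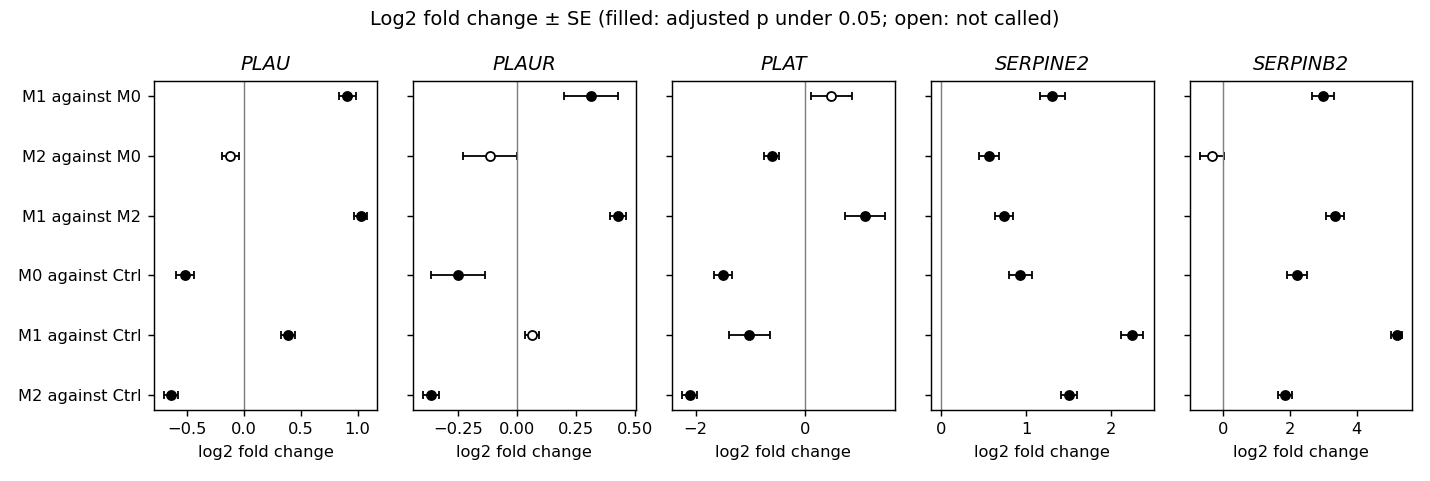
Log2 fold change ± SE (horizontal axis, its range set for each gene) of the 5 genes in the 6 comparisons, from 3 libraries a group. Filled points had an adjusted p under 0.05; all 5 genes lie right of 0 in M1 against M2, and only SERPINE2 and SERPINB2 lie right of 0 in all comparisons with Ctrl.

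Set side by side, the activator gene PLAU and both inhibitor genes were highest in M1. In M1 against M0, 4 of 5 genes rose and PLAT did not pass, where 52.2% of all tested genes were called, 25.5% as higher and 26.7% as lower, and their median log2 fold change was 0.91 beside -0.01 over all tested genes. In M1 against M2, 5 of 5 were higher in M1, where 32.5% of all tested genes were called, 15.9% as higher and 16.6% as lower (median log2 1.03 beside -0.03). In M2 against M0, 1 rose (SERPINE2), 1 fell (PLAT) and 3 did not pass, where 25.2% of all genes were called, 12.5% as higher and 12.7% as lower (median log2 -0.12 beside 0.00).

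Against Ctrl the 2 inhibitors parted from the activators and the receptor in M2 and M0. In M2 against Ctrl 2 genes rose and 3 fell, where 66.5% of all tested genes were called, 34.1% as higher and 32.4% as lower. In M0 against Ctrl 2 rose and 3 fell, where 61.7% of all genes were called, 31.1% as higher and 30.6% as lower. In M1 against Ctrl 3 rose, 1 fell and PLAUR did not pass, where 70.2% of all genes were called, 35.2% as higher and 35.0% as lower. Being called against Ctrl was thus common to most genes. The libraries of both groups did not overlap for 4 of the 5 genes in M1 against M0 (59.2% of all tested genes), 5 in M1 against M2 (50.1%), 2 in M2 against M0 (46.5%), and 5 each in M1 (71.3%), M2 (71.5%) and M0 (64.4%) against Ctrl. Comparisons with the same medium share its 3 libraries.

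Levels of different genes were compared per length, as CPM per kilobase of exon (RPKM). The order depends on the lengths used, among them 8891 exonic bases for SERPINE2, 2950 for PLAU and 2748 for SERPINB2. By CPM, without lengths, SERPINE2 (381 ± 39.9) and PLAU (362 ± 21.9) were close in Ctrl. In Ctrl, PLAU was the highest of the 5, at 123 ± 7.41 RPKM, above SERPINE2 (42.8 ± 4.48), PLAUR (34.1 ± 0.90), PLAT (27.0 ± 4.05) and SERPINB2 (22.3 ± 1.61). In M1, SERPINB2 was the highest, at 815 ± 153 RPKM, followed by SERPINE2 (203 ± 24.5), PLAU (161 ± 7.64), PLAUR (35.6 ± 0.89) and PLAT (13.3 ± 4.97). The last gene in Ctrl was thus the first in M1.

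As shares of the summed RPKM of the 5 genes, the 2 inhibitors together made up 82.7 ± 1.65% in M1, 64.2 ± 2.51% in M2 and 59.6 ± 1.78% in M0, against 26.2 ± 0.51% in Ctrl. The lowest share in any conditioned library was 57.6%, in M0 replicate 2, and the highest in any Ctrl library was 26.7%. PLAU held 13.2 ± 1.43% in M1, 25.3 ± 1.58% in M2 and 27.9 ± 1.30% in M0, against 49.3 ± 0.33% in Ctrl, although its level was highest in M1. PLAT held 1.06 ± 0.27% in M1, 2.00 ± 0.03% in M2 and 3.10 ± 0.06% in M0, against 10.8 ± 0.95% in Ctrl. The shares rest on the same lengths, so SERPINE2, with its long exon union, counts for less in them than by CPM. They cover these 5 genes alone. Inhibitor genes outside the 5 are not counted, so the shares do not give the balance of all activator and inhibitor RNA. RNA shares say nothing of protein amount, secretion or inhibitor activity, which were not measured here.

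**Figure D3:**
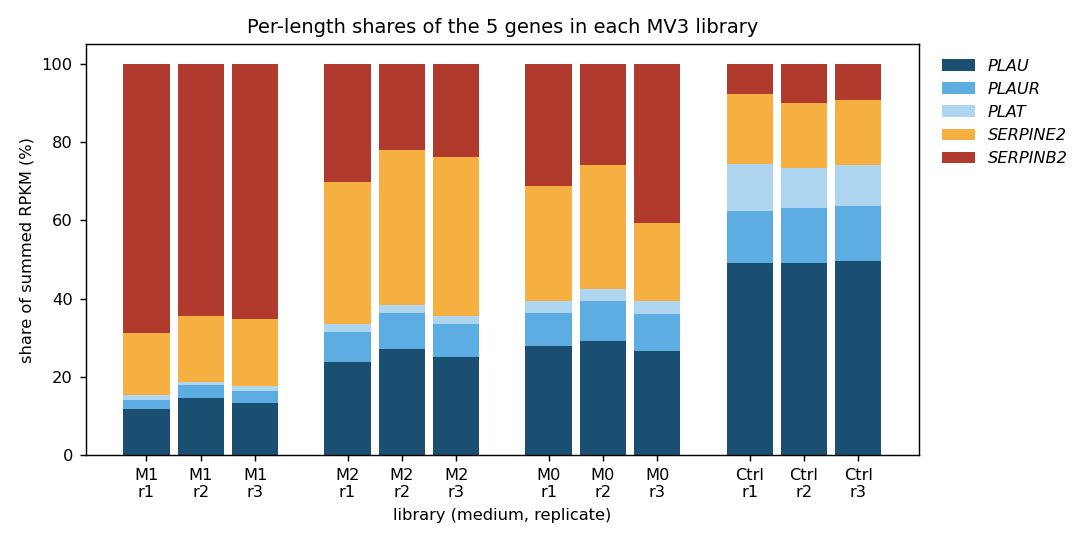
Share of each gene in the summed RPKM of the 5 genes (percent, stacked to 100) in each of the 12 libraries, with M1, M2, M0 and Ctrl from left to right. SERPINE2 and SERPINB2 together take 81.4 to 84.6% in M1 and 25.8 to 26.7% in Ctrl.

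Libraries of a group often ranked alike for several of the 5 genes. M0 replicate 3 had the highest PLAU, PLAUR, PLAT and SERPINB2 and the lowest SERPINE2 of the M0 libraries. M1 replicate 2 had the lowest values of all 5 genes among the M1 libraries. Ctrl replicate 1 had the highest PLAU, PLAUR, PLAT and SERPINE2 and the lowest SERPINB2 of the Ctrl libraries, and Ctrl replicate 2 was at the opposite end for each. Without M0 replicate 3 the log2 fold change in M0 against Ctrl was 1.87 for SERPINB2 and 1.02 for SERPINE2, and both calls remained.

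Other genes of the plasminogen system were followed in a list of 39, of which 21 were tested. In M1 against M0 11 rose, 4 fell and 6 did not pass, where 52.2% of all tested genes were called (median log2 0.22 beside -0.01 over all tested genes). In M1 against M2 11 were higher and 4 lower, where 32.5% of all genes were called. The M1 against M2 calls, 15 in all, came to 8 without M1 replicate 1 and 9 without M2 replicate 3. In M2 against M0 1 rose and 4 fell, where 25.2% of all genes were called. These 5 calls came to 3 without M2 replicate 1 or without M2 replicate 3. Without M0 replicate 3 and M2 replicate 2 together they came to 1. In M1 against Ctrl 10 rose and 6 fell (70.2% of all genes called), in M2 against Ctrl 8 rose and 6 fell (66.5%), and in M0 against Ctrl 9 rose and 4 fell (61.7%), shares of calls near those over all genes. PLG, the gene of plasminogen itself, had 0 reads in 11 libraries and 4 reads in M2 replicate 2.

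The tissue factor pathway inhibitor genes moved apart. TFPI2, whose product also inhibits plasmin, averaged 120 ± 20.9 CPM in M1, 34.0 ± 3.53 CPM in M2, 36.9 ± 1.64 CPM in M0 and 29.7 ± 0.72 CPM in Ctrl. It rose by log2 1.70 ± 0.15 SE in M1 against M0 (adjusted p = 6.52e-09) and was higher in M1 than in M2 by 1.82 ± 0.17 SE (adjusted p = 3.34e-09). TFPI, an inhibitor of the start of coagulation, averaged 16.2 ± 0.85 CPM in M1, 12.7 ± 1.12 CPM in M2 and 22.6 ± 4.83 CPM in M0, against 39.7 ± 7.83 CPM in Ctrl. It fell by log2 -1.30 ± 0.17 SE in M1 against Ctrl (adjusted p = 9.63e-07), by -1.65 ± 0.18 SE in M2 against Ctrl (adjusted p = 1.18e-07) and by -0.81 ± 0.24 SE in M0 against Ctrl (adjusted p = 0.000167). It was also lower than in M0 in M1 (log2 -0.49 ± 0.18 SE, adjusted p = 0.012) and in M2 (log2 -0.84 ± 0.19 SE, adjusted p = 0.00194).

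Of the genes for receptors that clear activator-inhibitor complexes or work beside the urokinase receptor, VLDLR, an endocytic receptor, and IGF2R, the mannose 6-phosphate receptor, rose in all conditioned media against Ctrl. VLDLR, with the larger changes, averaged 152 ± 14.7 CPM in M1, 110 ± 1.45 CPM in M2 and 107 ± 5.08 CPM in M0, against 22.2 ± 2.64 CPM in Ctrl. The rises of VLDLR against Ctrl were log2 2.77 ± 0.13 SE in M1 (adjusted p = 4.54e-13), 2.30 ± 0.10 SE in M2 (adjusted p = 7.27e-12) and 2.26 ± 0.10 SE in M0 (adjusted p = 9.97e-12). VLDLR shares 7.90% of its exonic bases with VLDLR-AS1 on the other strand, which had 4668 reads in all against 37323 for VLDLR. IGF2R averaged 592 ± 17.7 CPM in M1, 471 ± 24.8 CPM in M2 and 420 ± 53.7 CPM in M0, against 246 ± 45.3 CPM in Ctrl. It rose against Ctrl by log2 1.27 ± 0.15 SE in M1 (adjusted p = 5.97e-08), 0.94 ± 0.15 SE in M2 (adjusted p = 2.04e-06) and 0.77 ± 0.18 SE in M0 (adjusted p = 2e-05). LRP1, the main clearance receptor of such complexes, did not pass in M1 against Ctrl (log2 0.28 ± 0.20 SE, adjusted p = 0.0749) and was higher in M2 than in Ctrl (log2 0.37 ± 0.09 SE, adjusted p = 0.0246). M1 replicate 2 had 223 CPM and the other M1 libraries 329 and 333 CPM.

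**Figure D4:**
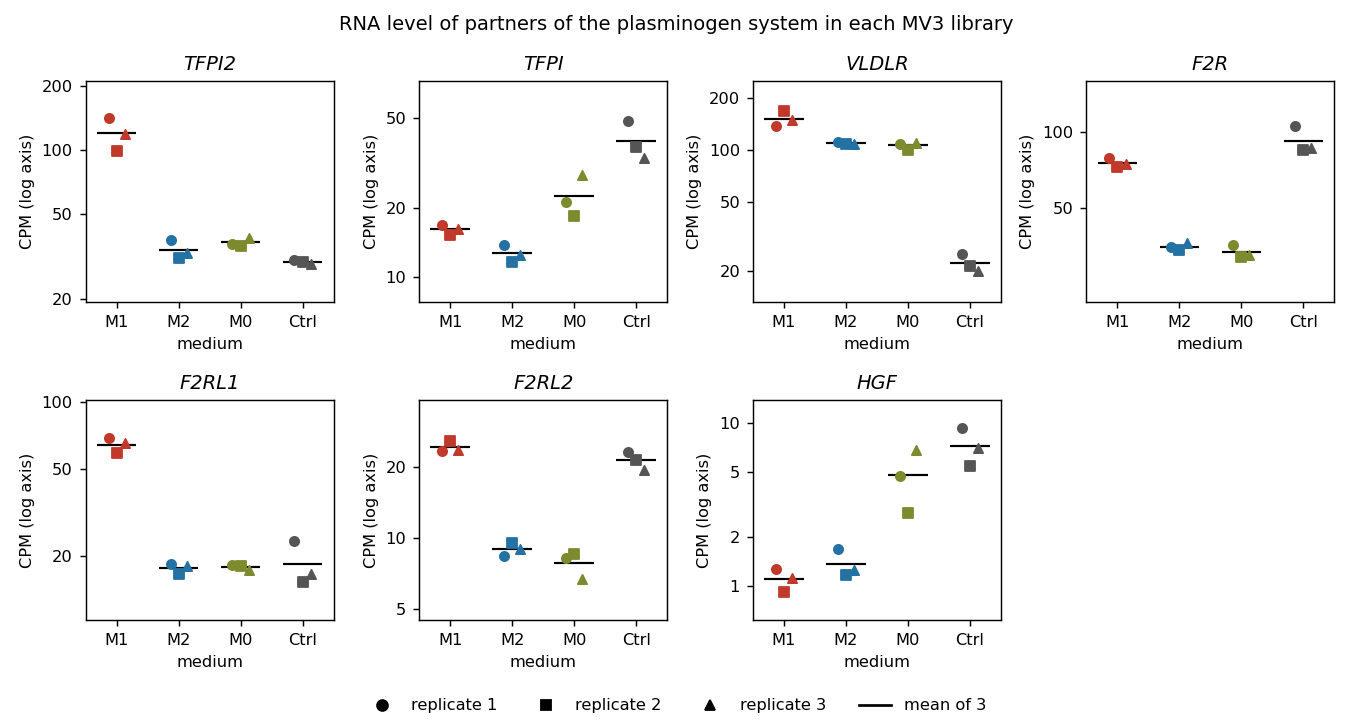
CPM on log axes of 7 partner genes in each of the 12 libraries, with M1, M2, M0 and Ctrl from left to right; symbols are replicates and lines are means of 3. TFPI2 and F2RL1 are highest in M1, and F2R and F2RL2 are low in M2 and M0 and high in M1 and Ctrl.

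Genes of protease-activated receptors, which signal when thrombin, trypsin-like proteases or plasmin cut them, separated M1 from the other conditioned media. F2R, the thrombin receptor gene, averaged 75.5 ± 3.11 CPM in M1, 35.3 ± 1.09 CPM in M2, 33.6 ± 2.00 CPM in M0 and 92.5 ± 11.7 CPM in Ctrl. It rose by log2 1.17 ± 0.06 SE in M1 against M0 (adjusted p = 3.38e-08), and it fell by log2 -1.39 ± 0.11 SE in M2 (adjusted p = 1.22e-09) and -1.46 ± 0.11 SE in M0 (adjusted p = 9.28e-10) against Ctrl. F2RL2, another thrombin receptor gene, averaged 24.1 ± 1.27 CPM in M1, 8.96 ± 0.57 CPM in M2, 7.85 ± 0.99 CPM in M0 and 21.3 ± 1.82 CPM in Ctrl. F2RL2 rose by log2 1.62 ± 0.12 SE in M1 against M0 (adjusted p = 8.83e-09). Between M1 and Ctrl, F2R fell by log2 -0.29 ± 0.11 SE (adjusted p = 0.00406) and F2RL2 did not pass (log2 0.18 ± 0.08 SE, adjusted p = 0.104).

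F2RL1, a receptor gene for trypsin-like proteases, was raised in M1, with like levels in the other groups. It averaged 64.2 ± 5.16 CPM in M1, 17.6 ± 0.98 CPM in M2, 17.8 ± 0.43 CPM in M0 and 18.4 ± 4.36 CPM in Ctrl. The rise was log2 1.85 ± 0.07 SE in M1 against M0 (adjusted p = 1.7e-08) and 1.80 ± 0.20 SE in M1 against Ctrl (adjusted p = 3.82e-09), while M2 and M0 did not pass against Ctrl. HGF, a growth factor gene whose product needs proteolytic activation, was low throughout. It averaged 1.10 ± 0.17 CPM in M1, 1.37 ± 0.28 CPM in M2, 4.78 ± 2.00 CPM in M0 and 7.23 ± 1.92 CPM in Ctrl. HGF fell by log2 -2.12 ± 0.39 SE in M1 (adjusted p = 3.09e-05) and by -1.80 ± 0.40 SE in M2 (adjusted p = 0.00115) against M0.

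The genes nearest in pattern were those with the smallest root mean square difference from a member, over the 12 libraries, in log2 CPM centred on each gene's own mean. Libraries of a group share their medium, so these are descriptions. Nearest to PLAU were B3GNT2, ANO10 and TMEM2, at 0.09, 0.09 and 0.12 log2 units, and nearest to PLAUR were TMEM50A, PDIA6 and TUBA1A, at 0.07, 0.08 and 0.09. CCDC80 and PCDH10 were near to PLAT, both at 0.25. SERPINE2 was matched by SH3PXD2B, FMNL1 and VDR, at 0.15, 0.16 and 0.16. SERPINB2 was nearest to SOD2 (0.26), ICAM1 (0.29) and TRAF1 (0.32), which averaged 2039, 558 and 35.1 CPM in M1 against 66.4, 15.1 and 1.25 CPM in Ctrl. Within the 5 genes the closest pair was PLAU and PLAUR, at 0.25 log2 units, and the farthest was PLAT and SERPINB2, at 2.26.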

How the data were processed

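Per the labels, poly-A RNA was made into strand-specific libraries and read in 2 runs from 1 end over 50 nt. Of the programs in the submitters' processing notes, STAR 2.5.4b is an aligner and Trimmomatic 0.36 a read trimmer; Bowtie2 2.2.3, FastQC 0.11.7 and DESeq2 1.20.0 are also listed, with the build hg38. How reads were counted, with or without strand, and on which annotation is not given in the sources used here. Raw read counts per gene were deposited by the authors, and the 12 per-sample files equalled the columns of the count table. Their second table, of variance-stabilized log2 values, also deposited by the authors, served an alternative test and the gene symbols.

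Testing of the deposited counts was done by edgeR 4.0.16 under R 4.3.3 (quasi-likelihood F test, TMM scaling, filterByExpr with minimum count 10 and minimum total 15, all 12 libraries in 1 fit, Benjamini-Hochberg adjustment over the 14088 genes, threshold 0.05). The method was run on simulated counts with 200 genes changed in M1 and the same relative spread for every gene. That setting is simpler than these data, so the run does not show the error rate in them. A prior count of 2 entered log2 CPM. Fold changes on the log2 scale come from the fit, and each SE from log2 CPM over 3 and 3 libraries. Exon unions and coordinates came from GENCODE release 29, which matched 58025 of 58288 identifiers without their version. RPKM over exon unions understates genes with long alternative exons. No replicate pair was as alike as counting error alone would make it (chi-square per degree of freedom 3.18 to 28.1 over genes with enough reads).

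The 5 genes and both gene lists (partners of the plasminogen system, clade B serpins) were chosen with earlier results of these data known. List genes were named where they passed the test with a log2 change of at least 1 and 1 CPM in the higher group, at most 6 per list and comparison; PLG, LRP1, IGF2R, SERPINB6, SERPINB7 and the markers were named after their values were seen. Some genes that this rule selects are not reported here. Same-numbered replicates were not paired, as their numbers are not stated to mark a batch. Of 18 correlations of their deviations, 6 were over 0.1. For 8 of the 12 libraries, the mean correlation with other groups was highest at their own number. Alternatives were RLE factors, DESeq2 1.42.0, limma 3.58.1 on the log2 values, no filter, fits of the 2 groups, a replicate block, and leaving out libraries.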

Additional observations from a re-analysis of the deposited data

How the results depend on the processing

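The 30 log2 fold changes of the 5 genes were recomputed under 390 alternative settings in all, and 376 kept their direction and their side of the threshold. In M1 against M0, PLAT passed with log2 0.50 without a filter (adjusted p = 3.46e-09) and 0.43 with a replicate block (adjusted p = 0.0369), and leaving out 1 library gave 0.24 to 0.76. In M2 against M0, PLAT missed the threshold with DESeq2 (-0.616), and with M0 replicate 3 and M2 replicate 2 both left out (-0.453); with 1 library left out it ranged from -0.69 to -0.49. In that comparison 2 of the 5 genes were called, and 1 with DESeq2, with those libraries left out, and in the lowest fit that left out 1 library, the highest being 2. SERPINB2 passed there without a filter (-0.357) and was 0.101, not called, without those 2 libraries. PLAUR there ranged from -0.193 to 0.00268 with 1 library left out, the top value without M0 replicate 3, and was not called. The main fit gave -0.349 ± 0.358 SE for SERPINB2, and 0.475 ± 0.371 SE for PLAT in M1 against M0. Without a filter both changes had nearly the same size but far lower adjusted p-values, so these passes do not reflect larger differences. PLAUR in M0 against Ctrl ranged from -0.38 to -0.18 with 1 library left out. The replicate block changed no other call of the 5 genes. The cause was not tested for any of these. All 33 results for list genes that the naming rule selects kept their direction and side in 429 settings. The rule had picked them by their test and size of change in these same data, so this outcome was largely set in advance. They include SERPINB10, whose reads are uncertain. Over all genes, M2 against M0 gave 3553 calls, and 1595 (M0 replicate 3), 1933 (M2 replicate 2), 1905 (M2 replicate 3) or 520 (the first 2 of these) when the libraries in brackets were left out. A count of 0 in a library allows up to 3 reads, counting error only, or 0.0685 to 0.14 CPM.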

Other observations

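The 12 other clade B serpins, mostly intracellular relatives of SERPINB2, included 5 with enough reads to be tested. Against Ctrl 4 rose and 1 fell in M1, where 70.2% of all tested genes were called, and 3 rose and 1 fell in M2 (66.5%) and in M0 (61.7%). SERPINB10, which counts among the 4 in M1, passed the filter on low counts only through M1. Its rise there was thus favoured in advance and adds no support to the count. SERPINB8, an inhibitor of furin-type proteases, averaged 142 ± 2.83 CPM in M1, 134 ± 5.72 CPM in M2 and 154 ± 8.61 CPM in M0, against 59.9 ± 3.06 CPM in Ctrl. It rose against Ctrl by log2 1.24 ± 0.05 SE in M1 (adjusted p = 1.25e-10), 1.17 ± 0.05 SE in M2 (adjusted p = 3.93e-10) and 1.36 ± 0.06 SE in M0 (adjusted p = 7.88e-11). SERPINB1, an inhibitor of neutrophil proteases, rose in M1 against Ctrl, at 48.8 ± 1.03 against 22.6 ± 2.02 CPM (log2 1.12 ± 0.08 SE, adjusted p = 7.51e-08). SERPINB1 also rose against Ctrl in M2 (41.2 ± 3.37 CPM, log2 0.87 ± 0.10 SE, adjusted p = 1.63e-06) and in M0 (37.5 ± 5.34 CPM, log2 0.73 ± 0.14 SE, adjusted p = 1.37e-05). SERPINB6, another intracellular inhibitor, averaged 88.5 ± 3.75 CPM in M1, 102 ± 2.95 CPM in M2 and 89.0 ± 3.87 CPM in M0, against 57.9 ± 0.86 CPM in Ctrl. It rose against Ctrl by log2 0.61 ± 0.04 SE in M1 (adjusted p = 1.59e-07), 0.82 ± 0.03 SE in M2 (adjusted p = 8.82e-09) and 0.62 ± 0.04 SE in M0 (adjusted p = 2.58e-07). SERPINB7 went the other way and fell in M1 (107 ± 29.3 CPM), M2 (110 ± 26.4 CPM) and M0 (147 ± 27.8 CPM) against Ctrl (212 ± 6.41 CPM).

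SERPINB10, whose annotation (chr18:63897174-63936111, plus strand, GRCh38) overlaps the end of SERPINB2, had 230 reads in M1, 15 in M2, 12 in M0 and 17 in Ctrl over 3 libraries each. These reads are given as a description, and no test result of SERPINB10 is given beyond its place in the counts above. Its annotated exons share 547 bases with those of SERPINB2, which had 243609 reads in M1, so reads of SERPINB10 are uncertain, and the part of SERPINB2 in them was not tested. The clade B serpins other than SERPINB1, SERPINB6, SERPINB7, SERPINB8 and SERPINB10, among them the near-identical pair SERPINB3 and SERPINB4, had too few reads to be tested.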
